A study of Mus musculus with 6 samples.

Results

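The genes described here encode the cytosolic heat shock proteins, the mitochondrial chaperones, and the chaperones and regulators of the endoplasmic reticulum (ER), together with the transcription factors that drive them. They are 44 genes chosen by symbol from a table of 35976 genes, and all 44 were found in it. By the compartment they serve, 19 are cytosolic (among them the heat shock factors Hsf1 and Hsf2), 4 are mitochondrial and 21 belong to the ER. Transcription factors, such as Xbp1 among the ER members, are placed by the pathway they regulate and not by where the protein sits. RNA was counted by 3′ sequencing in RAW264.7, a mouse macrophage-like cell line, with 3 libraries of cells exposed to itaconate for 24 h and 3 libraries of untreated control cells. Itaconate is a metabolite derived from cis-aconitate in activated macrophages, and neither its dose, its chemical form nor a vehicle is given in the labels. No label ties the replicates to separate cultures, and the p-values therefore reflect the spread among these 6 libraries alone, which may be technical.

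Chaperones bind unfolded protein and help it fold. In the cytosol, unfolded protein releases the transcription factor HSF1, which switches on inducible Hsp70, its DNAJ partners and other heat shock genes. In the ER, unfolded protein engages IRE1 (the product of Ern1), which splices Xbp1 mRNA, as well as ATF6, which is cut to an active factor, and PERK, which slows translation and favours ATF4. XBP1 and ATF6 raise ER chaperones and the machinery of ER-associated degradation, which returns misfolded protein to the cytosol for the proteasome. Mitochondria have their own Hsp70, Hsp60 and Hsp10, which fold imported protein.

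Promoter stretches that match the known elements of these regulators are printed to show which members share them. RefSeq promoters of GRCm38.p6 were matched for 35 of the 44 members, and 6 motifs were searched on both strands in the 250 bases before the RefSeq transcription start. GENCODE places the outermost start of Hspa5, Hspd1 and Dnajb4 farther upstream. The stretches printed for these genes lie within the GENCODE span of the gene. The ER stress response element, the letters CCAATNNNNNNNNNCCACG, was found in 7 of 18 ER members, in 0 of 14 cytosolic members and in 0.13% of all 27025 genes with a promoter. Several members are known targets of the ER stress response, and the share describes the gene list and not a measurement in these cells. Capitals mark the fixed letters of the element, which reads CGTGG first where it lies on the other strand:
Hspa5 (chr2:34772020-34772048, plus strand): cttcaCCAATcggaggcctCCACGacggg
Hsp90b1 (chr10:86705623-86705671, minus strand): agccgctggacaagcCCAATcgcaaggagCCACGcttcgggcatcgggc
Hsp90b1 (chr10:86705518-86705566, minus strand): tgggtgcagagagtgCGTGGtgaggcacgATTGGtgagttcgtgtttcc
Canx (chr11:50325785-50325833, minus strand): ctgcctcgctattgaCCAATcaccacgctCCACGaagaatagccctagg
Dnajc3 (chr14:118937812-118937860, plus strand): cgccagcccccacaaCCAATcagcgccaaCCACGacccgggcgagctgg
Pdia6 (chr12:17266476-17266524, plus strand): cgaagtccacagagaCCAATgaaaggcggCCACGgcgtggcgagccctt
Calr (chr8:84847060-84847108, minus strand): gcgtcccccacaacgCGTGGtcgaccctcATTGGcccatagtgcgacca
Creld2 (chr15:88819505-88819553, plus strand): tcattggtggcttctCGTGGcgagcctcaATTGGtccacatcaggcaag
Herpud1 (chr8:94386362-94386402, plus strand): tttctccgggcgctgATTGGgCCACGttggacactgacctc
The last line shows the related element II, ATTGG and CCACG with a single base between them, found in Herpud1 and in 0.037% of all genes. Hsp90b1 holds the first element at 2 places. Herpud1 also held an ATF4 and C/EBP composite element (TGATGCAA, in 0.918% of all genes). The XBP1 element TGACGTGG was in 0 of the 35 members and in 0.603% of all genes.

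The heat shock element is a run of GAA and its reverse TTC at fixed spacing. Its unit GAANNTTC was in 5 of 14 cytosolic members (Hspa1a, Hspa1b, Hspb1, Dnaja1 and Cct2) and in 7.73% of all genes. The other phase, TTCNNGAA, can overlap it and was in 3 of 14 (Hsph1, Dnajb4 and Cct5) and in 8.12% of all genes. Neither phase was found in any of the 18 ER members. The mitochondrial pair Hspd1 and Hspe1 lie head to head, and the same stretch of chromosome 1 lies in both promoters, read from opposite strands. It holds 3 overlapping units, shown with capitals on the fixed letters, beside the inducible Hsp70 genes Hspa1a and Hspa1b, whose printed stretches are identical, and Dnajb4, the called member with the largest change:
Hspd1 (chr1:55088054-55088081, minus strand): gggccTTCcgGAAggTTCtaGAAcggac
Hspe1 (chr1:55088054-55088081, plus strand): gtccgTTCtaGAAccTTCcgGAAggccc
Hspa1a (chr17:34972238-34972275, minus strand): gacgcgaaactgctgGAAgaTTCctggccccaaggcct
Hspa1b (chr17:34959320-34959357, minus strand): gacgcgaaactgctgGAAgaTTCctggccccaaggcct
Dnajb4 (chr3:152193846-152193874, minus strand): ttcgttcgttcgctgTTCtaGAAagtaca
A match describes the letters in this window and is not a measurement of binding. Dnajb4 was printed for its change in these cells, and a TTCNNGAA unit is in 8.12% of all genes. The other tested members with a unit of either phase (Hspa1b, Dnaja1, Cct2, Hsph1, Cct5, Hspd1 and Hspe1) were not called. A link between the units and the changes was not tested.

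Counts per library ran from 5202626 to 6098934, and levels are given as CPM, the count scaled for library depth with TMM factors. Of the 44 members, 41 passed the low-count filter and were tested among 10636 genes. Macrophage markers were present, with counts for 10 of 10 genes. Their summed level was 9393 to 9708 CPM in the itaconate libraries and 11203 to 12616 CPM in the control libraries. Csf1r averaged 1837 CPM in itaconate and 3693 CPM in control cells, and Cd14 averaged 777 and 1507 CPM. Both were lower at an edgeR adjusted p under 0.05, as were Itgam, Spi1 and Ptprc, while Cd68 was higher. Lyz2, Adgre1, Fcer1g and Tyrobp did not pass. The part of these differences in the results was not tested. Separate lists of fibroblast, lymphoid, epithelial, neutrophil and mast cell markers each summed to at most 7.47 CPM in any library, with 13 of their 23 genes at 0 counts. Libraries of the same group correlated at 0.963 to 0.970 across genes (Pearson, log2 CPM).

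Few chaperone transcripts passed the test. With edgeR's quasi-likelihood test at an adjusted p under 0.05, 6 of the 41 tested members were called higher in itaconate cells (Dnajb4, Hsf2, Hspa9, Sel1l, P4hb and Pdia6), 1 was called lower (Calr) and 34 were not called. That is 17.1% of the members, against 21.9% of all genes tested (10.7% higher and 11.2% lower). At an unadjusted p under 0.05 there were 12 members, or 29.3%, against 32.2% of all genes. These shares are not matched on level, and the members were more abundant than most genes. Of the tested members that averaged under 10 CPM, 0 of 2 were called, against 10.5% of all genes at that level. At 10 to 50 CPM, 2 of 11 members were called, near the 18.4% of all genes. At 50 to 200 CPM, 2 of 15 members were called, against 31.5% of all genes. At 200 CPM or more, 3 of 13 members were called, against 43.2% of all genes. The median log2 fold change was 0.02 over the members and -0.01 over all genes. Among the called members, Dnajb4 was the one with a 2-fold or larger change. The 95% interval of the log2 fold change lay wholly between -0.5 and 0.5 for 26 members, or 63.4%, against 26.9% of all genes, again without matching on level, on which the width of an interval depends. In bulk RNA, a change in the number of transcripts per cell and a change in the share of cells that make them cannot be told apart.

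**Figure D1:**
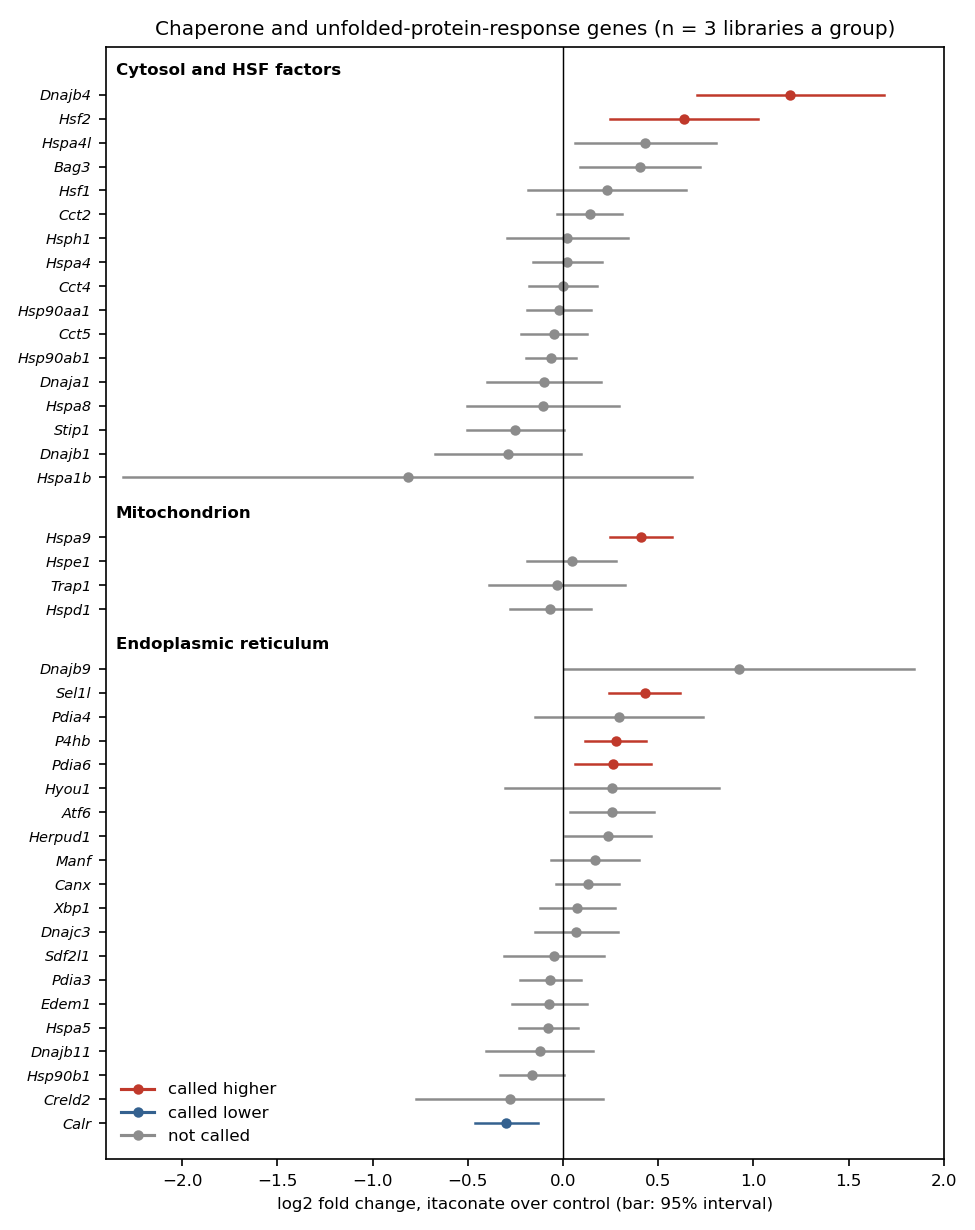
Log2 fold change of itaconate over control for the 41 tested members, by compartment; points are edgeR estimates, bars their 95% intervals, and colour the call at an adjusted p under 0.05 (n = 3 libraries a group). Dnajb4 lies farthest to the right among the called genes at 1.19, and Calr is the gene called lower at -0.30. The bars of Hsp90ab1 and Hspa5, the most abundant members, include 0.

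Dnajb4, a DNAJ co-chaperone that delivers clients to cytosolic Hsp70, rose most among the called members. It had 29.2, 22.8 and 24.8 CPM in the itaconate libraries, against 9.37, 13.5 and 10.6 CPM in the control libraries. The lowest itaconate library exceeded the highest control library, as in 9 of the 41 tested members and in 17.6% of all tested genes. Counting both directions, the libraries did not overlap in 13 members (31.7%) and in 35.6% of all tested genes. The log2 fold change was 1.19 ± 0.24 (SE, edgeR adjusted p = 0.000173), and the call held in all 13 alternative fits. The gene lies at chromosome 3, 152178511 to 152210302, minus strand (GENCODE M21, GRCm38).

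Hsf2, the heat shock factor that forms mixed trimers with HSF1, was also higher. It had 36.0, 45.0 and 32.9 CPM in the itaconate libraries, against 24.9, 29.1 and 19.0 CPM in the control libraries, without overlap between the groups. Its log2 fold change was 0.64 ± 0.19 (SE, edgeR adjusted p = 0.0129; chromosome 10, 57486385 to 57513135, plus strand). The call was lost without itaconate replicate 2 (adjusted p = 0.131), the highest library, and without control replicate 3 (adjusted p = 0.104), the lowest one. Hsf1, the main heat shock factor, had 23.7, 26.3 and 30.3 CPM in the itaconate libraries, against 19.3, 24.9 and 24.4 CPM in the control libraries. These groups overlapped, with a log2 fold change of 0.23 and a 95% interval of -0.19 to 0.65.

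The inducible Hsp70 genes, the usual readout of HSF1 activity, were close to the detection limit in both groups. Hspa1a had 3, 1 and 4 counts in the itaconate libraries and 9, 5 and 0 counts in the control libraries. It did not pass the low-count filter, and the fit without a filter gave a log2 fold change of -0.66 (edgeR adjusted p = 0.858). Hspa1b had 3, 6 and 15 counts in the itaconate libraries and 22, 12 and 11 counts in the control libraries, which overlap. Its log2 fold change of -0.82 had a 95% interval of -2.31 to 0.68, and a difference was not detectable at this depth. Hspb1, the small heat shock protein Hsp27, had 0 counts in all 6 libraries, which allows up to 0.487 to 0.565 CPM per library (3 counts, counting error only). Of its 3′-end stretches of 50 bases, 34.0% also occur in transcripts of other genes.

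The abundant cytosolic chaperones were not called, and their intervals were narrow. Hsp90ab1, the constitutive cytosolic Hsp90, was the 12th most abundant gene of the table. It had 5047, 5373 and 5516 CPM in the itaconate libraries, against 5440.3, 5482 and 5725 CPM in the control libraries. The groups overlapped, and the 95% interval of its log2 fold change was -0.20 to 0.07. Hsp90aa1, the inducible Hsp90, had 348, 345 and 346 CPM in the itaconate libraries, against 365, 342 and 348 CPM in the control libraries, with an interval of -0.19 to 0.15. Its 3 itaconate libraries lay within the range of the control libraries, and 29.4% of its 3′-end stretches also occur in other genes. Cct2, a subunit of the chaperonin that folds actin and tubulin, had 385, 350.0 and 339 CPM in the itaconate libraries, against 331, 324 and 320.2 CPM in the control libraries. All itaconate libraries were above the control libraries, but the log2 fold change of 0.14 ± 0.08 was not called (SE, edgeR adjusted p = 0.256). The other subunits Cct4 and Cct5 had log2 fold changes of 0.00 ± 0.09 and -0.05 ± 0.09 (SE).

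A pair of further cytosolic genes stood near the threshold. Bag3, which couples Hsp70 to selective autophagy, had 56.7, 52.3 and 61.2 CPM in the itaconate libraries, against 34.8, 45.2 and 48.9 CPM in the control libraries. The groups did not overlap, and the log2 fold change was 0.40 ± 0.16 (SE, edgeR adjusted p = 0.0577). It was called by limma-voom (adjusted p = 0.0477) and without control replicate 3 (edgeR adjusted p = 0.0402). Hspa4l, an Hsp110-type exchange factor, had 52.4, 40.2 and 33.6 CPM in the itaconate libraries, against 36.3, 31.2 and 25.7 CPM in the control libraries. Its lowest itaconate library lay below the highest control library, and the log2 fold change was 0.43 ± 0.18 (SE, edgeR adjusted p = 0.0887), called without itaconate replicate 3 (adjusted p = 0.027).

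None of the remaining cytosolic members was called. In all, 2 of the 17 tested cytosolic members were called (11.8%, against 21.9% of all genes). Stip1, the adaptor between Hsp70 and Hsp90, had a log2 fold change of -0.25 ± 0.13 (SE), with every itaconate library below every control library. Dnajb1, the classic HSF1-induced DNAJ partner of Hsp70, had -0.29 ± 0.19. Values for the exchange factors Hspa4 and Hsph1 were 0.02 ± 0.09 and 0.02 ± 0.16. Hspa8, the constitutive Hsp70, had -0.10 ± 0.20, and the DNAJ gene Dnaja1 had -0.10 ± 0.15. Counts of these last 2 are uncertain. Of the 50-base stretches in the last 400 bases of their annotated coding transcripts, 79.3% (Hspa8) and 70.3% (Dnaja1) also occur in transcripts of other genes, and the handling of reads with several matches is not given in the sources used here. Hspa8 averaged 31.4 ± 7.60 CPM in itaconate and 33.6 ± 8.86 CPM in control cells (SD, n = 3 each). The Dnaja1 end also overlaps Smu1 on the opposite strand over 24.3% of its bases.

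Of the 4 mitochondrial chaperones, 1 rose and 3 were not called, while 21.9% of all tested genes were called. Hspa9, the mitochondrial Hsp70 that pulls proteins through the inner membrane and folds them, had 524, 528 and 551 CPM in the itaconate libraries, against 393, 428 and 386 CPM in the control libraries. Every itaconate library was above every control library. The log2 fold change was 0.41 ± 0.08 (SE, edgeR adjusted p = 8.64e-05), a level 1.33-fold that of control cells, and the call held in all 13 alternative fits. Hspd1, which encodes Hsp60, had 142, 116 and 127 CPM in the itaconate libraries, against 137, 136 and 129 CPM in the control libraries. Its partner Hspe1, which encodes the Hsp10 lid of the same chamber, had 104, 93.4 and 93.0 CPM in the itaconate libraries, against 103, 90.6 and 87.9 CPM in the control libraries. Both genes of this pair overlapped between groups, with log2 fold changes of -0.07 ± 0.11 and 0.05 ± 0.12 (SE). They share 33.5% and 59.8% of their 3′-end stretches with other genes. Trap1, the mitochondrial Hsp90, had a log2 fold change of -0.03 ± 0.18, and 13.5% of its 3′ end overlaps Dnase1 on the opposite strand.

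The ratio of Hspa9 to Hspd1 counts within a library does not depend on the scaling of libraries. It was 3.69, 4.56 and 4.35 in the itaconate libraries, against 2.86, 3.14 and 2.98 in the control libraries, so that all itaconate libraries were higher. Counts were not divided by length, and the ratio serves only to compare libraries. Hspa9 counts per Hspa5 count, its ER counterpart, were 0.640, 0.686 and 0.783 in the itaconate libraries and 0.495, 0.514 and 0.485 in the control libraries, again without overlap.

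Other genes of mitochondrial protein import, folding and degradation were counted from a list of 20, of which 19 were tested. The list also holds Atf5, which encodes a transcription factor and is among the genes called. Of the 19 tested, 6 rose, 0 fell and 13 were not called, so that 31.6% were called, against 21.9% of all genes. The list median was 0.30 on the log2 scale, against -0.01 for all genes. Atf5, a transcription factor tied to the mitochondrial unfolded protein response, had 462, 511 and 650.0 CPM in the itaconate libraries, against 205, 208 and 232 CPM in the control libraries (log2 fold change 1.33 ± 0.10, SE, edgeR adjusted p = 1.3e-14). Afg3l2, a protease of the inner membrane, had 93.4, 113 and 94.8 CPM in the itaconate libraries, against 43.4, 42.1 and 37.9 CPM in the control libraries (log2 fold change 1.29 ± 0.14, SE, edgeR adjusted p = 8.64e-11). Both were above control in every library. Lonp1 and Grpel1, chosen after their values were seen, are the matrix protease and the exchange factor that resets mitochondrial Hsp70. Their log2 fold changes were 0.63 ± 0.10 (SE, edgeR adjusted p = 8.59e-07) and 0.64 ± 0.13 (SE, edgeR adjusted p = 9.56e-05). The disaggregase gene Clpb (0.45) and the import receptor gene Tomm70a (0.32), also chosen after their values were seen, complete the 6.

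**Figure D2:**
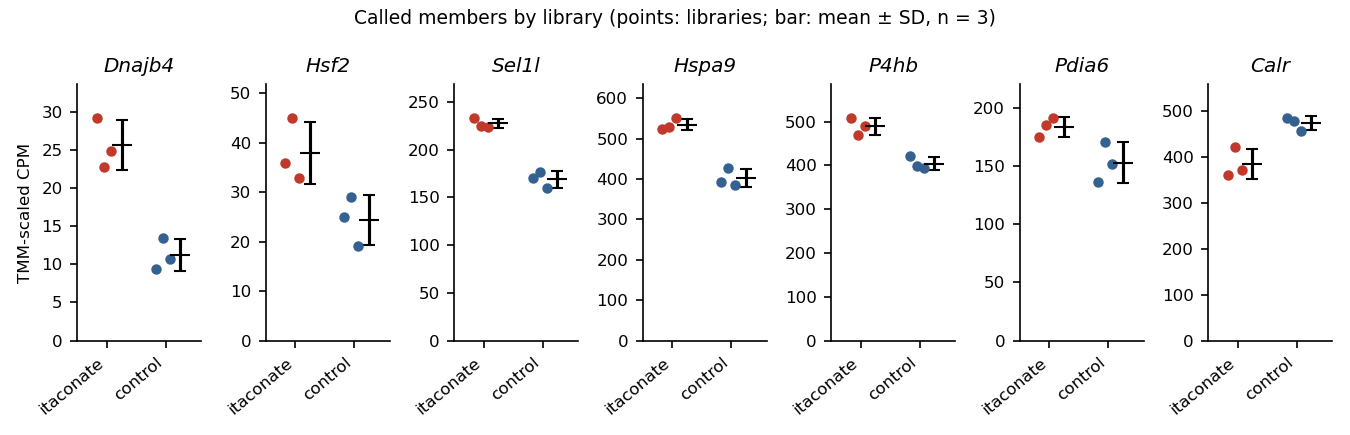
Level of the 7 called members in each library, in TMM-scaled CPM on axes that start at 0; points are libraries, bars the mean ± SD (n = 3), itaconate left and control right. The itaconate points lie above the control points in 6 panels and below them in the panel of Calr, with the widest gap relative to the level in the panel of Dnajb4.

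Within the ER, the Hsp70 and Hsp90 chaperones were not called, and the genes that passed the test were P4hb, Pdia6, Sel1l and Calr. Of 20 tested ER members, 3 rose, 1 fell and 16 were not called (20.0% called, against 21.9% of all genes). Their median log2 fold change was 0.10. Hspa5, or BiP, the central ER Hsp70 and a standard readout of the unfolded protein response, had 819, 770.4 and 704 CPM in the itaconate libraries, against 794, 831 and 796 CPM in the control libraries. The groups overlapped, and the 95% interval of the log2 fold change was -0.23 to 0.08. Hsp90b1, the ER Hsp90 known as GRP94, had a log2 fold change of -0.16 ± 0.08 (SE), with the itaconate libraries below the control libraries and an edgeR adjusted p of 0.178.

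In the group of Hspa5, Hsp90b1, co-chaperones and secreted stress proteins, 0 of 9 were called by edgeR, against 21.9% of all genes. Of these, 1 had an unadjusted p under 0.05. It was Dnajb9, a DNAJ partner of BiP and a direct XBP1 target, with 3.58, 9.90 and 9.27 CPM in the itaconate libraries, against 3.68, 4.71 and 3.55 CPM in the control libraries. Itaconate replicates 2 and 3 stood above the control libraries and replicate 1 lay among them. The log2 fold change was 0.93 ± 0.46 (SE, edgeR adjusted p = 0.151), and the gene was called without itaconate replicate 1 (adjusted p = 0.0452). Hyou1, an ER exchange factor, and Manf, a secreted stress protein, had log2 fold changes of 0.26 ± 0.28 and 0.17 ± 0.12. Those of Dnajb11 and Dnajc3, DNAJ partners of BiP, were -0.12 ± 0.14 and 0.07 ± 0.11. Sdf2l1 and Creld2, both ER stress genes, had -0.05 ± 0.13 and -0.28 ± 0.24.

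Of the lectin chaperones, which hold newly made glycoproteins, Calr was called and Canx was not. Calr, the soluble lectin calreticulin, fell, with 360.0, 422 and 371 CPM in the itaconate libraries, against 484, 478 and 455 CPM in the control libraries. No library overlapped, and the log2 fold change was -0.30 ± 0.08 (SE, edgeR adjusted p = 0.00598; chromosome 8, 84841850 to 84846934, minus strand), called in all 13 alternative fits. Canx, its membrane-bound relative calnexin, had 511, 459.8 and 466 CPM in the itaconate libraries, against 477, 407 and 430.5 CPM in the control libraries. The Canx groups overlapped, with a 95% interval of -0.04 to 0.30. Calr and Canx both carry the ER stress response element printed above. Of the 7 members with that element, 1 rose (Pdia6), 1 fell (Calr) and 5 were not called. That is 28.6% called, against 21.9% of all genes, and their median log2 fold change was -0.08.

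Disulphide isomerases form and reshuffle disulphide bonds. P4hb, the most studied isomerase (PDI) and a subunit of prolyl hydroxylase, had 508, 469 and 491 CPM in the itaconate libraries, against 420.3, 398 and 393 CPM in the control libraries. The groups did not overlap, and the log2 fold change was 0.28 ± 0.08 (SE, edgeR adjusted p = 0.00868; chromosome 11, 120560298 to 120573253, minus strand), called in all 13 alternative fits. Pdia6 had 175, 185 and 191 CPM in the itaconate libraries, against 136, 171 and 152 CPM in the control libraries, with the groups apart by a narrow margin. Its log2 fold change was 0.26 ± 0.10 (SE, edgeR adjusted p = 0.0485; chromosome 12, 17266545 to 17284770, plus strand). That call was lost in 9 of 13 alternative fits, where the adjusted p ran up to 0.255 (without control replicate 1), and 12.5% of its annotated 3′ end overlaps Atp6v1c2 on the opposite strand. Pdia3, the isomerase that works with calreticulin and calnexin, had 495, 503 and 539.8 CPM in the itaconate libraries, against 521, 511 and 577 CPM in the control libraries. These overlapped, and the interval was -0.23 to 0.10. Pdia4 had a log2 fold change of 0.29 ± 0.22 (SE).

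In ER-associated degradation, Sel1l, the adaptor that stabilises the ubiquitin ligase HRD1, rose. It had 233, 225 and 224 CPM in the itaconate libraries, against 170.4, 176 and 159.5 CPM in the control libraries. The groups did not overlap, with a log2 fold change of 0.43 ± 0.09 (SE, edgeR adjusted p = 0.000352; chromosome 12, 91806043 to 91849157, minus strand), called in all 13 alternative fits. Herpud1, which assembles the same ligase complex, had 112, 121 and 127 CPM in the itaconate libraries, against 94.9, 114 and 97.0 CPM in the control libraries. Control replicate 2 lay among the itaconate libraries, and the log2 fold change of 0.24 ± 0.11 (SE, edgeR adjusted p = 0.133) was called in 0 of 13 alternative fits. Edem1, which tags misfolded glycoproteins for disposal, had -0.07 ± 0.10.

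Of the members that regulate the unfolded protein response, Xbp1 and Atf6 were tested and not called, and Ern1 was not tested. Xbp1 had 162, 163 and 184 CPM in the itaconate libraries, against 158, 172 and 154 CPM in the control libraries. Its groups overlapped, with an interval of -0.12 to 0.27, and gene counts do not separate the spliced from the unspliced mRNA. Atf6 had 149, 132 and 132 CPM in the itaconate libraries, against 100.1, 126 and 121 CPM in the control libraries. All itaconate libraries were above the control libraries, but the log2 fold change of 0.26 ± 0.11 (SE, edgeR adjusted p = 0.0891) was not called here or in any of the 13 alternatives. Ern1, the IRE1 gene, had 7, 19 and 14 counts in the itaconate libraries and 0, 10 and 2 counts in the control libraries, and it did not pass the low-count filter. Without a filter its log2 fold change was 1.83 (edgeR adjusted p = 0.335).

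**Figure D3:**
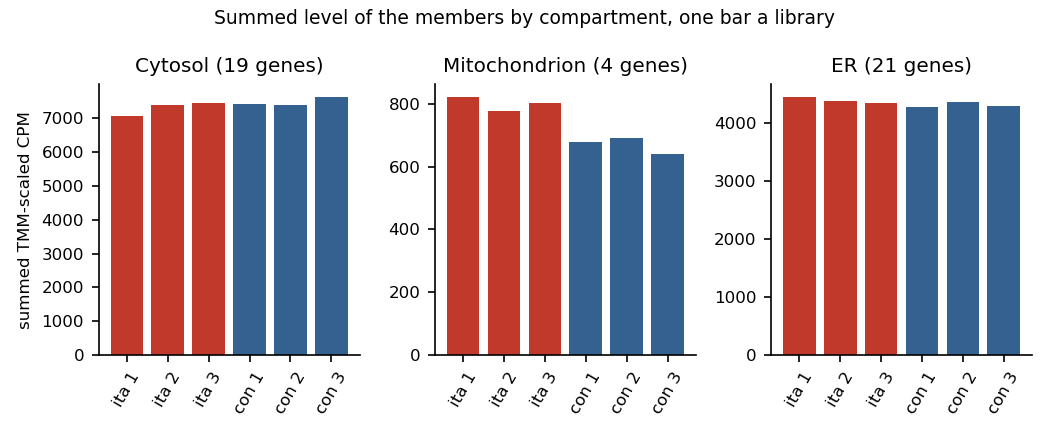
Summed TMM-scaled CPM of the cytosolic (19), mitochondrial (4) and ER (21) members, one bar per library, itaconate (ita) left and control (con) right, axes from 0. The cytosolic and ER bars overlap between the groups, and the mitochondrial bars are higher in all 3 itaconate libraries.

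Summed over compartments, the cytosolic members reached 7063, 7371 and 7433 CPM in the itaconate libraries, against 7426, 7387 and 7609 CPM in the control libraries. Hsp90ab1 made up 73.6% of that sum, which includes the uncertain counts of Hspa8 and Dnaja1. The ER members summed to 4446, 4381 and 4347 CPM in the itaconate libraries and 4279, 4359.7 and 4289 CPM in the control libraries. Both sums overlapped between the groups. Mitochondrial members summed to 820.1, 775 and 802 CPM in the itaconate libraries, against 679, 692 and 641 CPM in the control libraries, which did not overlap. Without Hspa9 the mitochondrial sum was 296, 247 and 250.4 CPM in the itaconate libraries and 286, 264 and 254 CPM in the control libraries, which did. No test was made on these sums, since the genes were chosen.

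The wider machinery of these pathways was counted from lists of genes outside the 44. Of the genes listed as cytosolic, 0 of 11 other chaperonin and prefoldin subunits were called by edgeR (1 had an unadjusted p under 0.05). In the list of other co-chaperones and DNAJ genes, 2 of 24 rose (8.33% called, against 21.9% of all genes). They were Dnaja2 (log2 fold change 0.38 ± 0.10, SE, edgeR adjusted p = 0.00201) and Dnajc8 (log2 fold change 0.24 ± 0.08, SE, edgeR adjusted p = 0.0359). The compartment is that of the list, and a cytosolic folding role of Dnajc8 was not checked. In the ER folding list, 3 of 23 rose and 3 fell (26.1% called, against 21.9% of all genes), with a median of 0.10. Ero1l, the oxidase that recharges disulphide isomerases, had 71.0, 88.4 and 92.2 CPM in the itaconate libraries, against 40.5, 35.4 and 45.2 CPM in the control libraries (log2 fold change 1.06 ± 0.15, SE, edgeR adjusted p = 9.83e-08). Erp29, an ER folding factor, had 548, 582 and 588 CPM in the itaconate libraries, against 761, 785 and 793 CPM in the control libraries (log2 fold change -0.44 ± 0.08, SE, edgeR adjusted p = 9.19e-06). The oxidase was higher, and Erp29 lower, in every itaconate library.

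Of 20 other ER-associated degradation genes tested, 5 rose and 0 fell, with a median log2 fold change of 0.28. The called share of 25% was near the 21.9% of all genes. The leading ones were Ubxn4 and Edem2. Ubxn4, an ER-membrane partner of the VCP ATPase, had a log2 fold change of 0.51 ± 0.09 (SE, edgeR adjusted p = 1.22e-05). Edem2, a mannosidase related to Edem1, had a log2 fold change of 0.63 ± 0.14 (SE, edgeR adjusted p = 0.000731). Of the genes that bring proteins into the ER, 3 of 21 rose and 0 fell (14.3% called, against 21.9% of all genes; median 0.13), led by the signal peptidase subunit Sec11c (log2 fold change 0.74 ± 0.10, SE, edgeR adjusted p = 2.84e-08) and by Sec63, which recruits BiP to the translocon (log2 fold change 0.47 ± 0.10, SE, edgeR adjusted p = 0.000408). In the list around ATF6 processing, 2 of 9 rose and 1 fell (33.3% called, against 21.9% of all genes). Mbtps1, the protease that makes the first cut of ATF6, fell (log2 fold change -0.62 ± 0.12, SE, edgeR adjusted p = 5.73e-05), and Tmbim6, an ER calcium-leak channel that restrains IRE1, rose (log2 fold change 0.58 ± 0.09, SE, edgeR adjusted p = 7.28e-07). Mbtps2, the protease of the second cut, chosen after its values were seen, also rose (log2 fold change 0.61 ± 0.20, SE, edgeR adjusted p = 0.0182).

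In the list of the PERK and ATF4 branch, 8 of 13 tested genes rose, 0 fell and 5 were not called (61.5% called, against 21.9% of all genes), and the median log2 fold change was 0.59. Trib3, a pseudokinase induced through ATF4 and CHOP, had 112, 103 and 129 CPM in the itaconate libraries, against 36.7, 41.1 and 38.1 CPM in the control libraries (log2 fold change 1.57 ± 0.13, SE, edgeR adjusted p = 9.45e-14). Asns, asparagine synthetase, had 309, 319 and 312 CPM in the itaconate libraries, against 158, 170.4 and 159 CPM in the control libraries (log2 fold change 0.95 ± 0.09, SE, edgeR adjusted p = 3.38e-12). In both genes every itaconate library was above every control library. Ddit3, which encodes CHOP and was chosen after its values were seen, had 41.8, 31.2 and 33.9 CPM in the itaconate libraries, against 20.4, 15.1 and 14.9 CPM in the control libraries (log2 fold change 1.08 ± 0.21, SE, edgeR adjusted p = 6.69e-05). Eif2ak3, which encodes PERK itself, was not called (log2 fold change 0.22 ± 0.31, SE, edgeR adjusted p = 0.69). Atf4 rose (log2 fold change 0.45 ± 0.08, SE, edgeR adjusted p = 7.38e-06), while Atf3 (-0.06) and Nupr1 (-0.20) were not called. These last 3 genes were also chosen after their values were seen. RNA counts do not measure the activity of PERK, and whether PERK acted on the genes of this list was not tested. The lists were chosen with earlier results of these data known, and no test compares one list with another.

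**Figure D4:**
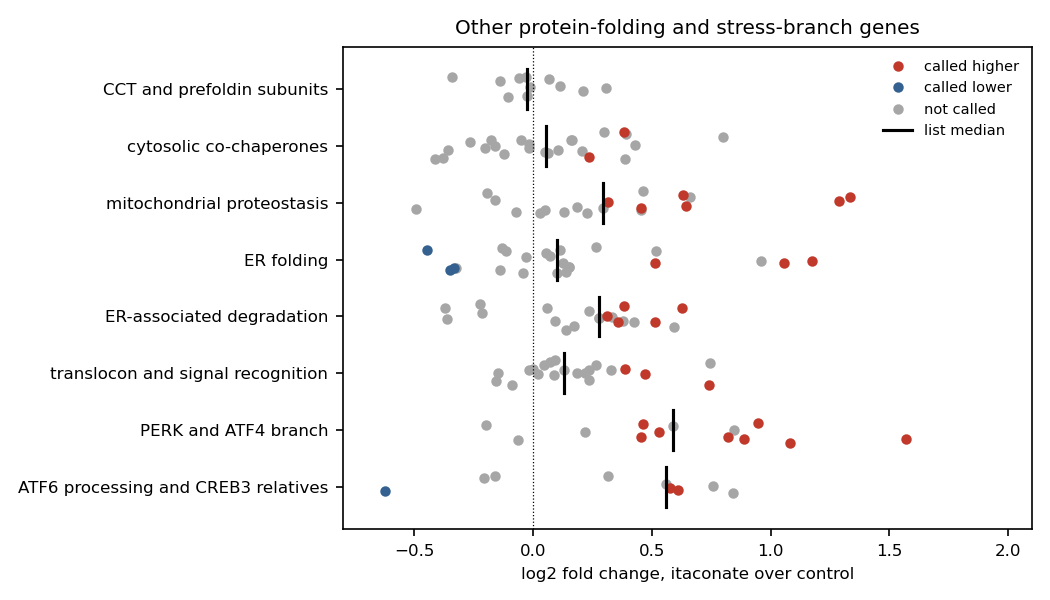
Log2 fold change of itaconate over control for genes outside the 44, by list; each point is a gene, coloured by its edgeR call, and the black bar is the list median. The medians run from -0.02 for the chaperonin and prefoldin subunits to 0.59 for the PERK and ATF4 branch.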

How the data were processed

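Per the labels' protocols, TRIzol RNA went into Lexogen QuantSeq FWD libraries, which are primed at the poly(A) tail. The authors deposited 1 table of unnormalized whole-number counts by gene symbol. Credited to the submitters' processing notes are the aligner STAR 2.7.5a, HTSeq 0.6.1, the genome mm10 and edgeR, with strand and multi-match settings not given in the sources used here. Genes were kept with filterByExpr defaults (minimum count 10, minimum total 15), which left 10636 genes with 99.74% of counts, and were tested by quasi-likelihood in edgeR 4.0.16 under R 4.3.3 (TMM, robust, group as the only term, two-sided, Benjamini-Hochberg over all genes, called at an adjusted p under 0.05). The SE is the absolute log2 fold change over the square root of F. The scripts were tested on simulated data. The 13 alternative fits used RLE size factors, library totals, no filter, at least 5 CPM in 3 libraries, DESeq2 1.42.0, limma-voom (limma 3.58.1), a replicate block, and each library left out. The members and lists were chosen with earlier results of these data known. The naming rule gave every library's value for members with an unadjusted p under 0.05 or a call in any fit, the 3 most abundant members per compartment, the inducible Hsp70 genes and the regulators, and up to 2 called genes of each other list. Gene positions and 3′ ends come from GENCODE M21 on GRCm38, which mm10 names, and promoters from RefSeq on GRCm38.p6.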

Additional observations from a re-analysis of the deposited data

How the results depend on the processing

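Of 531 values of the 41 tested members over the 13 alternatives, 516 kept their side of the threshold. In the others, 11 lost a call (Pdia6 in 9 fits and Hsf2 in 2) and 4 gained one (Bag3, Hspa4l and Dnajb9). The count of members called higher ran from 4 to 6 and the count called lower stayed at 1. The sign turned for 13 members, with an unadjusted p of at least 0.366 wherever it turned, and none of them had a main log2 fold change beyond 0.29 in size. With library totals instead of TMM, the log2 change of the summed CPM was -0.089 for cytosolic, 0.20 for mitochondrial and -0.025 for ER members. With TMM it was -0.036, 0.25 and 0.027, so that the ER sum changed sign. The median log2 fold change of all tested genes also moved down, from -0.007 with TMM to -0.059 with library totals. The cause of this common shift was not tested. Libraries that share a replicate number did not deviate visibly together (correlations of -0.0135, 0.0171 and 0.038). These deviations were taken from means of 3 libraries, and they cannot exclude that same-numbered libraries were prepared together. The labels do not say. The fit with a replicate block called 6 members higher and 1 lower, and 1087 genes higher and 1160 lower in all, against 1133 and 1191. Depth limits Hspa1a, Hspa1b, Hspb1 and Ern1, for which a change could not be measured.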

Other observations

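Called genes were more frequent at higher levels. Of the tested genes that averaged 200 CPM or more over all libraries, 43.2% were called, against 10.5% of those under 10 CPM. P4hb counts per Pdia3 count were 1.03, 0.932 and 0.909 in the itaconate libraries and 0.807, 0.779 and 0.680 in the control libraries, a ratio that does not depend on library scaling. Hspa4l per Hspa4 was 0.182, 0.152 and 0.134, against 0.126, 0.128 and 0.1, without overlap. Hsp90ab1 per Hsp90aa1 was 14.5, 15.6 and 15.9, against 14.9, 16.0 and 16.5, with overlap. The gene pairs of all ratios given here were chosen by hand, and no test was made on them.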
